A study of Danio rerio with 14 samples.

Results

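The 48 genes described here encode the extracellular matrix of the liver, the enzymes that cross-link and cut it, and the integrins through which cells hold on to it. They were measured in livers of adult zebrafish that had eaten a regular diet or had been overfed for a month. The members are all genes measured by at least 1 unshared probe set whose symbol names a collagen, laminin, fibronectin, matrix metalloproteinase (MMP), tissue inhibitor of metalloproteinases (TIMP), integrin or lysyl oxidase, or is tgfbi, sparc or dcn. The rule also admitted fibrillins, ADAMTS proteases and lumican, and found no probe set of 1 gene for them. The 48 genes are part of 8793 genes with such a probe set, and for a gene with several, the probe set with the largest average level was taken. Of the 48, 45 exceeded 4 on the log2 scale on at least 2 arrays and were tested. The cross-linking enzyme gene loxa, the laminin gene lamc3 and the collagen gene col15a1b did not reach that level, with highest values of 3.66, 4.09 and 3.84.

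Liver RNA was hybridised to an Affymetrix 3-prime array, 1 array per liver sample. The fish carried either 1 or 2 working copies of ahcy, whose product hydrolyses the S-adenosylhomocysteine left by methylation reactions. The groups were overfed ahcy+/- (2 arrays), overfed ahcy+/+ (5 arrays), regular-diet ahcy+/- (3 arrays) and regular-diet ahcy+/+ (4 arrays), and the arrays carry the numbers of their titles. The overfed ahcy+/+ array numbered 4 in its title is numbered 5 in its description. Each diet was given in 1 tank that held both genotypes, so a diet effect and a tank effect cannot be told apart. The sources used here state neither the sex of the fish nor whether a sample was 1 liver or a pool, so the p-values measure only the spread between these samples.

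Collagens of the fibrillar kind give tissue its tensile strength, while laminins and several other collagens build the thin sheets on which cells sit. In the liver much of this matrix is made by stellate cells and fibroblasts that lie between the hepatocytes. Integrins, pairs of an alpha and a beta chain in the cell membrane, bind matrix proteins outside the cell and the cytoskeleton inside it. MMPs cut matrix proteins, TIMPs bind and block MMPs, and the balance of the pair is known for its part in the scarring and the repair of livers.

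All values are log2 levels as deposited, and a difference of 1 is a doubling. Levels of different probe sets are not on a common scale, so no order of levels between genes is given. Array medians lay between 5.96 and 6.02 after overfeeding and between 6.03 and 6.12 on the regular diet. Group means were fitted to all 15134 tested probe sets on the 14 arrays with limma, and a gene counts as changed where its Benjamini-Hochberg adjusted p over all of them was under 0.05. The number of arrays limits the precision. In whole liver, fewer cells of a type and less RNA per cell cannot be told apart.

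The main comparison asked how overfeeding moved these genes, first as the average of the diet differences in the genotypes. Overfed livers held 7.31-fold more transcript of tgfbi, a secreted protein that binds collagens and integrins, and 3.62-fold more of timp2a, an MMP inhibitor. The membrane-bound collagenase gene mmp14b was 2.13-fold higher and col18a1a, whose collagen lies in basement membranes, 1.65-fold higher. The gene for decorin (dcn), a small proteoglycan that coats collagen fibrils, was 1.25-fold lower. These 5 were the members past the threshold, which is 11.1% of 45, against 10.3% of all tested probe sets, so the share of the members was close to the background. Higher were 4 members (8.89%, against 5.83%) and lower was 1 (2.22%, against 4.5%). The median log2 difference was -0.02 over the members and -0.07 over all probe sets. An unadjusted p under 0.05 was found for 12 members, or 26.7%, and for 27.7% of all probe sets.

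**Figure D1:**
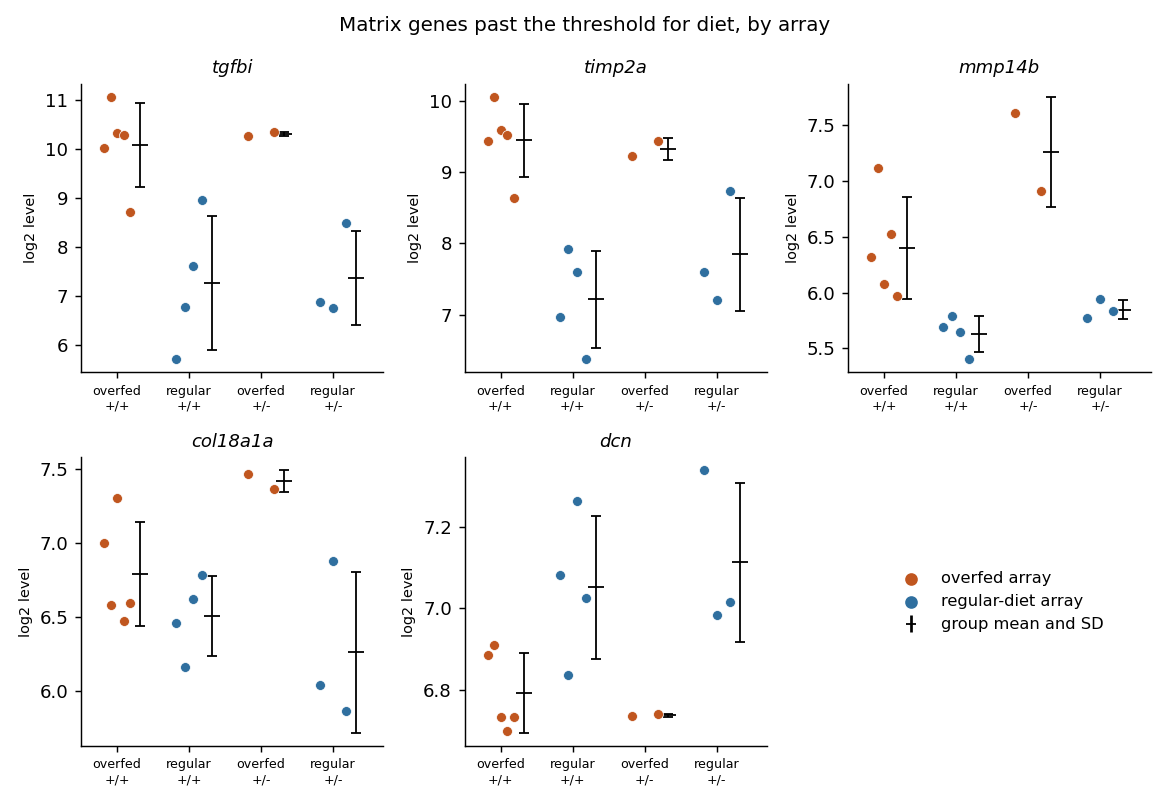
Log2 level (vertical axis, its range set per gene) of the 5 members past the threshold for diet on each of 14 arrays. Points are arrays, overfed in orange and regular diet in blue, in ahcy+/+ (left pair) and ahcy+/- (right pair), and black bars give the group mean with its SD (n = 5, 4, 2 and 3). All 7 overfed arrays lie above all 7 regular-diet arrays for mmp14b, while for the other 4 genes at least 1 array of each diet lies within the range of the other.

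The inhibitors of MMPs were a pair of paralogues whose probe sets differed in their response. timp2a read 9.44, 10.05, 9.58, 9.51 and 8.64 on the overfed ahcy+/+ arrays 2, 3, 4, 6 and 7, against 6.97, 7.92, 7.60 and 6.38 on the regular-diet ahcy+/+ arrays 2, 5, 6 and 9. In ahcy+/- livers it read 9.22 and 9.43 on the overfed arrays 1 and 4, against 7.60, 7.20 and 8.74 on the regular-diet arrays 3, 7 and 8. Overfed and regular-diet arrays did not overlap within either genotype, and over all 14 only the regular-diet ahcy+/- array 8 lay above an overfed array. The log2 difference was 1.86 ± 0.31 (SE; adjusted p = 0.00402) on average, 2.23 ± 0.36 (SE; adjusted p = 0.00811) in ahcy+/+ and 1.48 ± 0.50 (SE; adjusted p = 0.221) in ahcy+/-. timp2b, the other copy of the same inhibitor gene, ranged from 4.40 to 5.48 on the overfed arrays and from 4.59 to 5.81 on the regular-diet arrays. Its averaged difference was -0.10 (95% interval -0.47 to 0.28; adjusted p = 0.752).

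Among the 7 MMP genes, the threshold was passed by mmp14b, whose product cuts fibrillar collagen at the cell surface and in mammals activates the secreted protease MMP2. It read 6.32, 7.12, 6.08, 6.52 and 5.97 on the overfed ahcy+/+ arrays 2, 3, 4, 6 and 7, against 5.69, 5.79, 5.64 and 5.41 on the regular-diet ahcy+/+ arrays 2, 5, 6 and 9. The overfed ahcy+/- arrays 1 and 4 read 7.61 and 6.91, against 5.77, 5.94 and 5.84 on the regular-diet arrays 3, 7 and 8. It was the only member whose diets did not overlap over all 14 arrays, 1 of 45 or 2.22%, against 3.55% of all probe sets. Overfed arrays reached down to 5.97 and regular-diet arrays up to 5.94, and the spread was wider after overfeeding. The log2 difference was 1.09 ± 0.18 (SE; adjusted p = 0.00373) on average, 0.77 ± 0.21 in ahcy+/+ (adjusted p = 0.057) and 1.41 ± 0.29 in ahcy+/- (adjusted p = 0.0847).

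The other 6 MMP genes did not pass, and the 95% intervals of their averaged differences lay between -0.38 and 0.84. mmp14a, the other copy of the same protease gene, ranged from 5.39 to 6.40 after overfeeding and from 5.19 to 5.93 on the regular diet, an averaged difference of 0.23 ± 0.15 (SE; adjusted p = 0.346). A second probe set of mmp14a gave -0.09 ± 0.09 (adjusted p = 0.561). mmp2, the gelatinase gene, ranged from 6.19 to 6.95 after overfeeding and from 5.15 to 6.80 on the regular diet, with a difference of 0.23 ± 0.24 (adjusted p = 0.557), and its second probe set gave 0.07 ± 0.12. For mmp9, the other gelatinase gene and a marker of neutrophils and macrophages, the difference was 0.00 ± 0.11 (adjusted p = 0.995). The stromelysin gene mmp11b had a difference of -0.17 ± 0.10 (adjusted p = 0.297), and the membrane-type protease gene mmp17b -0.09 ± 0.13. The collagenase gene mmp13a had a difference of 0.26 ± 0.27 (adjusted p = 0.562), with 7.71 on the overfed ahcy+/- array 4 and 5.41 to 6.57 on the other 13 arrays.

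Both copies, a and b, were tested for 4 member genes. The copy col15a1b did not reach the filter level, and its pair with col15a1a was not compared. Within each array the level of b minus that of a was taken, which removes what scales a whole array. The size of that quantity has no meaning between probe sets, and only its change with diet is given. For timp2b minus timp2a the diet effect, overfed minus regular and averaged over genotypes, was -1.95 (2-sided exact permutation of diets within genotypes, p = 0.00159, adjusted p = 0.00635 over the 4 pairs). For mmp14b minus mmp14a the diet effect was 0.86 (exact permutation p = 0.023, adjusted p = 0.0307). For the fibronectin pair, fn1b minus fn1a, it was 0.58 (exact permutation p = 0.00556, adjusted p = 0.0111). With the other probe sets of fn1a it was 0.40 (exact permutation p = 0.0206) and 0.25 (exact permutation p = 0.171), so the fibronectin result depends on the probe set, while with the second probe set of mmp14a that pair gave 1.18 (exact permutation p = 0.00397). For col10a1b minus col10a1a it was -0.07 (exact permutation p = 0.527). The probe sets of the inhibitor and protease copies thus moved by unequal amounts with diet, while the difference for the col10a1 pair was within the spread. timp2a and mmp14b had already passed for diet on these same arrays, so the p-values of their pairs are no separate support for those calls. timp2b lay between 4.40 and 5.81, near the filter level of 4. Whether the 2 probe sets of a pair respond alike to the same change in transcript was not tested. The smallest p these permutations can give is 0.000794.

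Of the 5 matrix glycoproteins and proteoglycans, tgfbi rose and dcn fell. tgfbi read 10.02, 11.06, 10.32, 10.27 and 8.72 on the overfed ahcy+/+ arrays 2, 3, 4, 6 and 7, against 5.71, 6.78, 7.61 and 8.96 on the regular-diet ahcy+/+ arrays 2, 5, 6 and 9. In ahcy+/- livers it read 10.26 and 10.33 on the overfed arrays 1 and 4, against 6.88, 6.75 and 8.48 on the regular-diet arrays 3, 7 and 8. The diets overlapped in ahcy+/+ by 1 array each, overfed array 7 and regular-diet array 9, and did not overlap in ahcy+/-. Regular-diet arrays were spread over more than 3 log2 units, with an SD of 1.37 (n = 4) in ahcy+/+ and of 0.96 (n = 3) in ahcy+/-. The log2 difference was 2.87 ± 0.51 (SE; adjusted p = 0.00541) on average, 2.81 ± 0.60 (adjusted p = 0.0209) in ahcy+/+ and 2.93 ± 0.82 (adjusted p = 0.152) in ahcy+/-. In ahcy+/+ the adjusted p of tgfbi lay between 0.0501 and 0.0693 without regular-diet array 2 or 5 or overfed array 4 or 6.

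dcn read 6.89, 6.91, 6.73, 6.70 and 6.73 on the overfed ahcy+/+ arrays and 6.74 and 6.74 on the overfed ahcy+/- arrays. The regular-diet values were 7.08, 6.84, 7.26 and 7.03 in ahcy+/+ and 7.34, 6.99 and 7.02 in ahcy+/-. Only the regular-diet ahcy+/+ array 5 lay within the overfed range. The averaged difference was -0.32 ± 0.09 (SE; adjusted p = 0.0451), and neither genotype alone passed (adjusted p = 0.207 in ahcy+/+ and 0.286 in ahcy+/-). This call is at the edge of the threshold: it ended in 9 of the 14 fits that left out an array, with an adjusted p of up to 0.144. These were the fits without regular-diet ahcy+/+ array 2 or 6, regular-diet ahcy+/- array 3, overfed ahcy+/+ array 2, 4, 6 or 7, or either overfed ahcy+/- array. With each array centred on its median the difference was -0.24 (adjusted p = 0.114).

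Fibronectin, a large glycoprotein that integrins bind, is made by hepatocytes for the blood and by other cells for the tissue. fn1b ranged from 12.49 to 12.78 on the overfed arrays with a median of 12.71, against 11.90 to 12.54 with a median of 12.38 on the regular diet. The lowest overfed array lay below the 2 highest regular-diet arrays, and the averaged difference of 0.34 ± 0.11 (SE) did not pass (adjusted p = 0.0608). With arrays centred on their medians it passed at an adjusted p of 0.03, and without regular-diet ahcy+/+ array 6 or 9 at 0.0471 and 0.0403. fn1a ranged from 5.75 to 6.24 on overfed and from 5.95 to 6.48 on regular-diet arrays, a difference of -0.24 ± 0.11 (adjusted p = 0.195), and its other probe sets gave -0.06 ± 0.10 and 0.09 ± 0.13. For sparc, a protein that binds collagen and calcium, the difference was 0.21 ± 0.21 (adjusted p = 0.541).

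The 6 fibrillar collagen genes gave no call in limma for diet. The averaged differences ran from -0.26 to 0.05, 5 of them below 0, and their 95% intervals all lay between -0.63 and 0.23, which is less than a 2-fold change in either direction. At an unadjusted p under 0.05 there was 1 of the 6, col2a1a, a cartilage collagen, at -0.26 ± 0.11 (adjusted p = 0.154). Without regular-diet ahcy+/- array 7 col2a1a passed (adjusted p = 0.0452). The type I collagen genes are the ones most tied to liver scarring. col1a1a read 7.5, 8.0, 8.33, 7.76 and 8.07 on the overfed ahcy+/+ arrays and 7.89 and 8.02 on the overfed ahcy+/- arrays. On the regular diet it read 8.32, 8.40, 8.05 and 7.34 in ahcy+/+ and 8.25, 8.35 and 8.48 in ahcy+/-. All overfed ahcy+/+ values lay within the range of the regular-diet ahcy+/+ values, with regular-diet array 9 the lowest of all 14, and in ahcy+/- both overfed arrays lay below the regular-diet ones. The averaged difference was -0.25 ± 0.18 (SE; adjusted p = 0.375), and a second probe set gave 0.03 ± 0.10.

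col1a2, the partner chain, ranged from 6.41 to 7.13 after overfeeding and from 6.35 to 7.34 on the regular diet, a difference of -0.13 ± 0.15 (adjusted p = 0.612), and its second probe set gave 0.06 ± 0.21. col5a2a, whose chain joins type I fibrils, had a difference of 0.05 ± 0.09 (adjusted p = 0.759). The minor fibrillar gene col11a1a had one of -0.26 ± 0.17 (adjusted p = 0.325) and col11a2 one of 0.00 ± 0.11 (adjusted p = 0.988).

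The laminins were represented by 6 tested genes and no gene of type IV collagen was among the members. None passed in limma, and 1 had an unadjusted p under 0.05. This was lama5, the alpha chain of many epithelial basement membranes, with 5.86 to 6.28 and a median of 6.06 on overfed arrays, against 6.22 to 6.74 and a median of 6.35 on the regular diet. Its diets did not overlap in ahcy+/+, and the averaged difference of -0.34 ± 0.11 (SE) had an adjusted p of 0.0741. lama5 passed with array weights (adjusted p = 0.0336), with a vitellogenin covariate (0.0198) and without regular-diet ahcy+/- array 7 (0.0312). The others had averaged differences from -0.17 for lama4, an alpha chain of vessel walls, to 0.17 for lamc1, the gamma chain found in most laminins. A second probe set of lama4 gave -0.02 ± 0.10. The 95% intervals of the 6 lay between -0.59 and 0.48.

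Of the 14 other collagens tested, col18a1a rose and 13 did not pass. col18a1a encodes a collagen of basement membranes that releases the fragment endostatin. It read 7.0, 6.58, 7.30, 6.47 and 6.60 on the overfed ahcy+/+ arrays and 7.47 and 7.36 on the overfed ahcy+/- arrays, against 6.46, 6.16, 6.62 and 6.79 on the regular-diet ahcy+/+ arrays and 6.04, 6.88 and 5.86 on the regular-diet ahcy+/- arrays. The diets overlapped in ahcy+/+, while in ahcy+/- both overfed arrays were the highest of that genotype. The averaged difference was 0.72 ± 0.19 (SE; adjusted p = 0.0294), made up of 0.28 ± 0.22 (adjusted p = 0.52) in ahcy+/+ and 1.16 ± 0.30 (adjusted p = 0.143) in ahcy+/-. The averaged call ended in 5 of the 14 fits without an array: without regular-diet ahcy+/+ array 5, regular-diet ahcy+/- array 3 or 8, or overfed ahcy+/- array 1 or 4 (adjusted p from 0.0559 to 0.0958). Next came col6a3, a chain of the beaded filaments around cells, with 0.41 ± 0.15 (SE; adjusted p = 0.098). It passed with a vitellogenin covariate (adjusted p = 0.0373) and without regular-diet ahcy+/+ array 6 (0.0237). The 95% intervals of the 13 lay between -0.65 and 0.72, and the gene for the fibril-associated collagen col12a1b, at 9.28 to 10.29 on overfed and 9.38 to 10.21 on regular-diet arrays, differed by 0.02 ± 0.19.

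loxl2b, whose enzyme cross-links collagen and elastin, ranged from 6.0 to 6.46 on overfed and from 5.66 to 6.18 on regular-diet arrays. Its averaged difference of 0.31 ± 0.11 (SE) had an adjusted p of 0.0967, and of 0.0443 with arrays centred on their medians.

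None of the 4 integrin genes passed in limma for diet, and itga5 alone had an unadjusted p under 0.05. itga5, the alpha chain of the fibronectin receptor, ranged from 5.84 to 6.24 on overfed and from 5.98 to 6.94 on regular-diet arrays, an averaged difference of -0.31 ± 0.13 (SE; adjusted p = 0.147). With a vitellogenin covariate itga5 passed (adjusted p = 0.0228). itgb5, a beta chain that pairs with the alpha V chain, differed by -0.02 ± 0.18 (adjusted p = 0.965). itga2b, a chain of the fibrinogen receptor of thrombocytes, differed by 0.07 ± 0.14 (adjusted p = 0.788). itga6b, an alpha chain of laminin receptors, stood at 6.14 and 5.46 on the overfed ahcy+/+ arrays 2 and 7 and between 2.34 and 4.12 on the other 12 arrays. It exceeded the level of 4 on 3 arrays only, and the averaged difference of 0.14 had a 95% interval from -1.02 to 1.31.

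**Figure D2:**
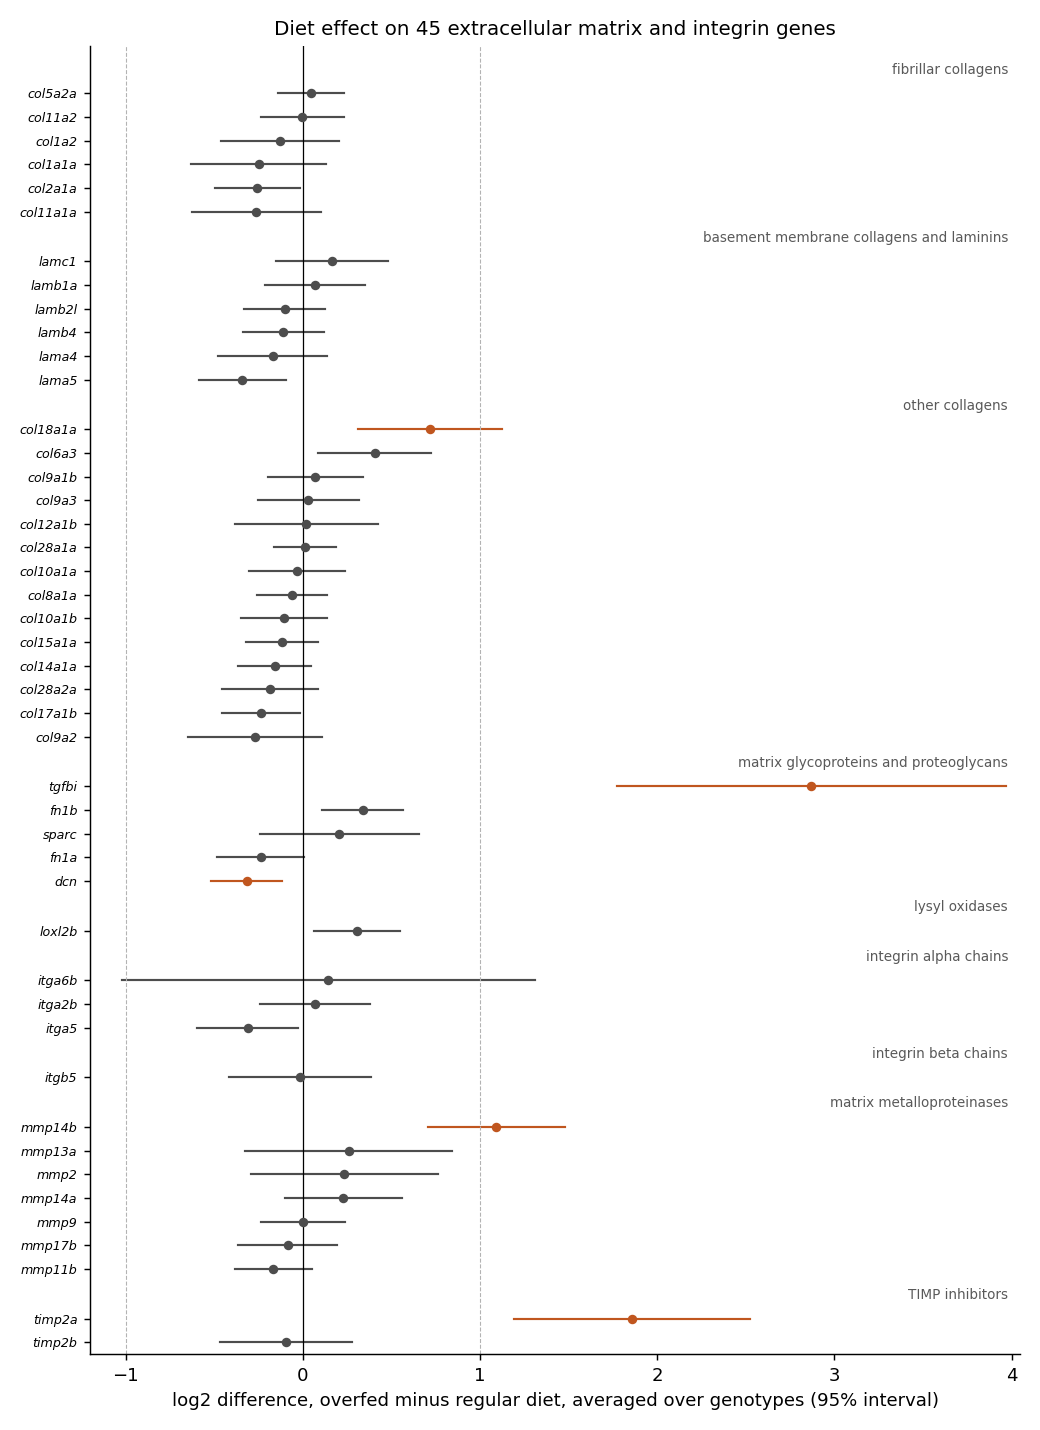
Averaged log2 difference (horizontal axis, overfed minus regular diet) of the 45 tested members by role, with 95% intervals from limma; the line at 0 is no difference and the dashed lines mark a 2-fold change. The 5 members past the threshold are orange, and the intervals of 40 of the 45 lie within a 2-fold change either way.

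Across the 45, the 95% interval of the averaged difference lay within a 2-fold change either way for 40, or 88.9%, against 89.4% of all probe sets. The 5 exceptions were tgfbi, timp2a, mmp14b, col18a1a and itga6b. The heat map of all members by array shows the diet split in tgfbi, timp2a and mmp14b, and little of it elsewhere.

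**Figure D3:**
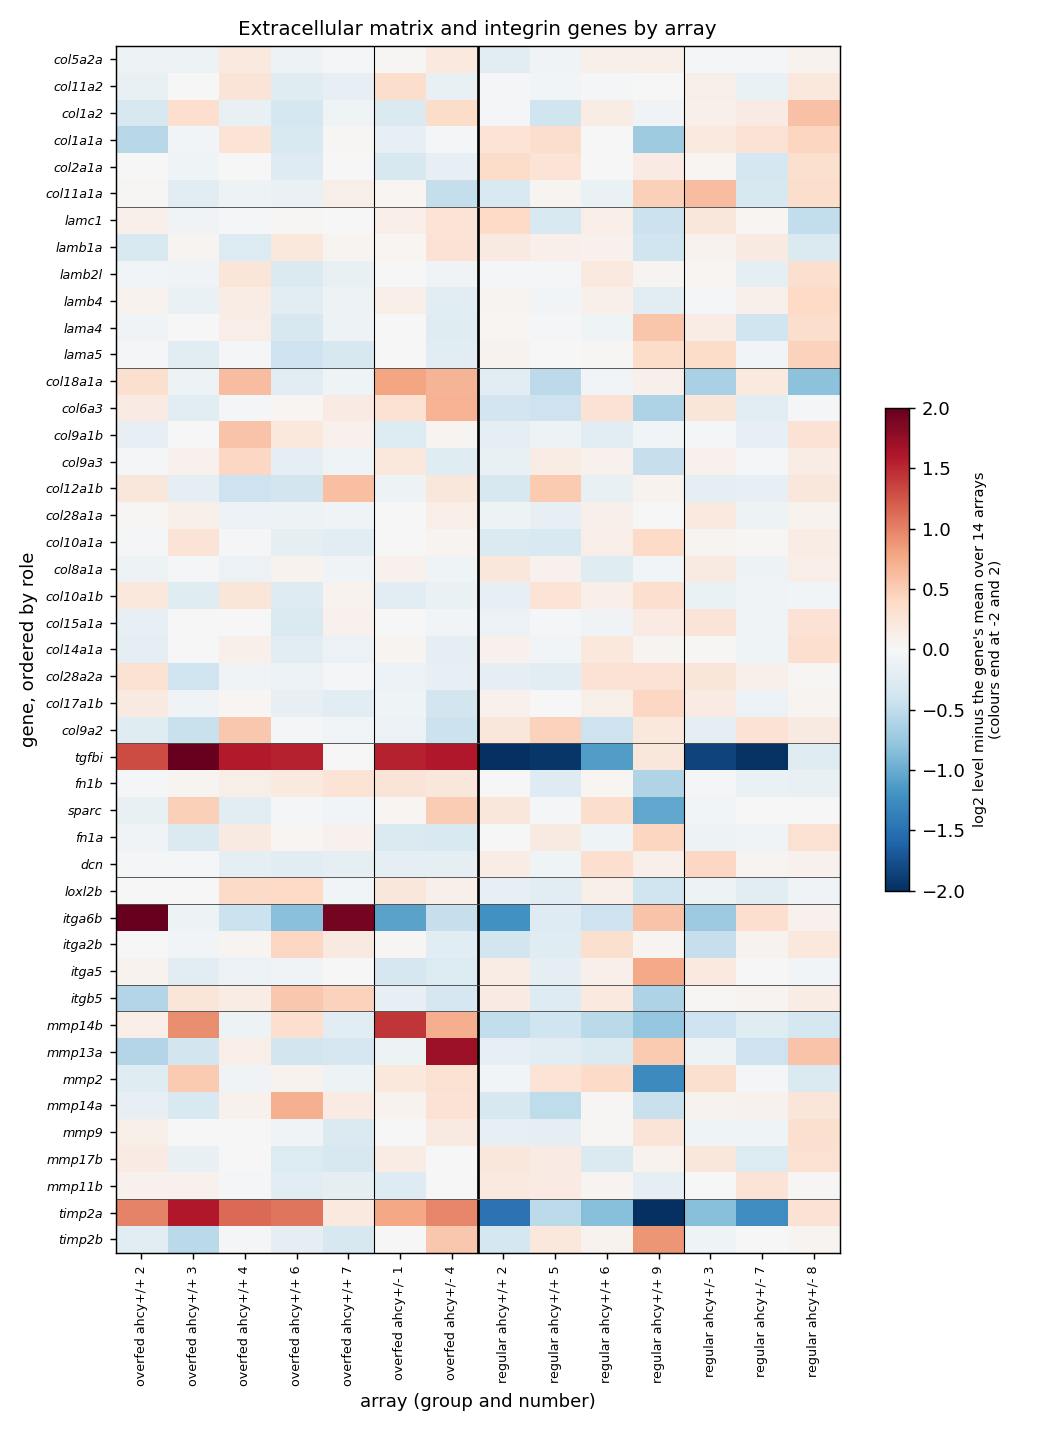
Log2 level of the 45 tested members (down the page, by role) on 14 arrays (across, overfed left of the heavy line and regular diet right of it), as the difference from the gene's own mean over the arrays. Red is above and blue below that mean. timp2a is red on overfed arrays, and so is tgfbi except on the overfed ahcy+/+ array 7, which lies near its mean. Both are mostly blue on regular-diet arrays. itga6b is red on 2 overfed ahcy+/+ arrays, and the regular-diet ahcy+/+ array 9 is the highest of its group for 18 members and the lowest for 14.

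Within ahcy+/+ livers alone, 2 of 45 members passed, tgfbi and timp2a, or 4.44%, against 4.5% of all probe sets, or 3.07% counting only those that were higher. An unadjusted p under 0.05 was found for 9 members (20.0%, against 19.7%), and 3 (6.67%) did not overlap between diets, against 8.68%. These 3 were timp2a and mmp14b, which were higher after overfeeding, and lama5, which was lower. Within ahcy+/- livers no member passed in limma, where 0.0991% of all probe sets did. At an unadjusted p under 0.05 there were 5 members, or 11.1%, against 14.2%. The 2 overfed arrays lay beyond the 3 regular-diet arrays for 14 members, or 31.1%, against 32.1%. In both genotypes the share of the members was near the background.

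The diet difference itself was compared between genotypes by the interaction term, and no member passed (0.0% of all probe sets passed in limma). At an unadjusted p under 0.05 there was 1 member at the probe set chosen for it, or 2.22%, against 1.91% of all probe sets. It was col18a1a, whose diet difference was 0.87 ± 0.38 (SE) larger in ahcy+/- than in ahcy+/+ (adjusted p = 1.0). The second probe set of mmp14a was also under 0.05, with an interaction of -0.44 ± 0.18 (SE), and did not pass after adjustment. The intervals were wide, for timp2a from -2.08 to 0.58, for tgfbi from -2.08 to 2.31 and for mmp14b from -0.13 to 1.42.

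The genotype comparisons asked whether losing 1 copy of ahcy moved these genes on either diet. On the regular diet no member passed in limma (0.0% of all probe sets) and none had an unadjusted p under 0.05 at the probe set chosen for it, against 3.03% of all probe sets. The second probe set of col1a1a did, with a genotype difference of 0.35 ± 0.13 (SE; adjusted p = 1.0). mmp14a came nearest among the chosen probe sets, with 5.76, 5.78 and 5.93 in ahcy+/- livers, against 5.38, 5.19, 5.72 and 5.24 in ahcy+/+ livers. These groups did not overlap, which held for 1 member or 2.22% and for 3.04% of all probe sets, and the difference was 0.44 ± 0.21 (SE; adjusted p = 1.0). The 95% interval of the genotype difference lay within a 2-fold change for 42 of 45 members, or 93.3%, against 91.2% of all probe sets. It did not for tgfbi (-1.38 to 1.59), timp2a (-0.27 to 1.53) and itga6b (-1.35 to 1.79).

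After overfeeding no member passed either (0.0% of all probe sets), and 4 had an unadjusted p under 0.05, or 8.89%, against 1.72% of all probe sets. All 4 were higher in ahcy+/- livers, as were 0.918% of all probe sets. They were mmp14b at 0.86 ± 0.26 (log2 difference ± SE), mmp13a at 1.1 ± 0.40, col18a1a at 0.63 ± 0.28 and col6a3 at 0.48 ± 0.22, each with an adjusted p of 1.0. These are 2 overfed ahcy+/- arrays against 5 overfed ahcy+/+ arrays. For mmp14b the ahcy+/- values of 7.61 and 6.91 enclose the highest ahcy+/+ value of 7.12, and for mmp13a the difference rests on array 4 (7.71), the other ahcy+/- array reading 5.89. The 2 groups did not overlap for 5 members, or 11.1%, against 6.61% of all probe sets. Of these, col18a1a, col6a3, timp2b and lamc1 were higher and itga5 lower in ahcy+/-.

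Genes that act on the same matrix were counted from lists of related functions. Of 13 measured collagen-processing genes, 2 rose in ahcy+/+, in ahcy+/- and on average, and the other 11 did not pass in any of these. That is 15.4% of the list, against 4.5% of all probe sets in ahcy+/+, 0.0991% in ahcy+/- and 10.3% on average. The list was chosen with earlier results of these data known, so this share is a count and not a test of the list. p4ha1b encodes a catalytic subunit of prolyl 4-hydroxylase, which stabilises the collagen helix, and plod1a a lysyl hydroxylase, which prepares collagen for cross-linking. p4ha1b read 9.41, 9.34, 9.57, 9.61 and 8.80 on the overfed ahcy+/+ arrays, against 7.59, 6.83, 7.12 and 7.32 on the regular-diet ahcy+/+ arrays. In ahcy+/- it read 9.58 and 9.45 on the overfed arrays, against 7.46, 6.95 and 7.44 on the regular diet. The lowest overfed array lay more than 1 log2 unit above the highest regular-diet array, and the averaged difference was 2.18 ± 0.16 (SE; adjusted p = 2.15e-05).

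plod1a read 6.88, 7.09, 6.94, 7.31 and 6.98 on the overfed ahcy+/+ arrays and 7.11 and 7.20 on the overfed ahcy+/- arrays. On the regular diet it read 5.90, 5.92, 5.89 and 6.19 in ahcy+/+ and 6.0, 5.73 and 6.08 in ahcy+/-. The diets did not overlap, with an averaged difference of 1.14 ± 0.10 (SE; adjusted p = 6.86e-05). In ahcy+/- the calls of p4ha1b and plod1a ended without either overfed array, with adjusted p from 0.07 to 0.124, and in a fit of the 5 ahcy+/- arrays alone (adjusted p = 0.0693 and 0.165). The median difference of the 13 genes was -0.01, and the collagen chaperone gene serpinh1b, at -0.53 ± 0.19 (adjusted p = 0.094), and the prolyl hydroxylase subunit gene p4ha2, at 0.25 ± 0.10 (adjusted p = 0.126), did not pass. The fibrillar collagens, which are among the substrates of these enzymes, gave no call in the same fit. Of the other collagen genes, col18a1a passed on average, with a difference of 0.72.

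**Figure D4:**
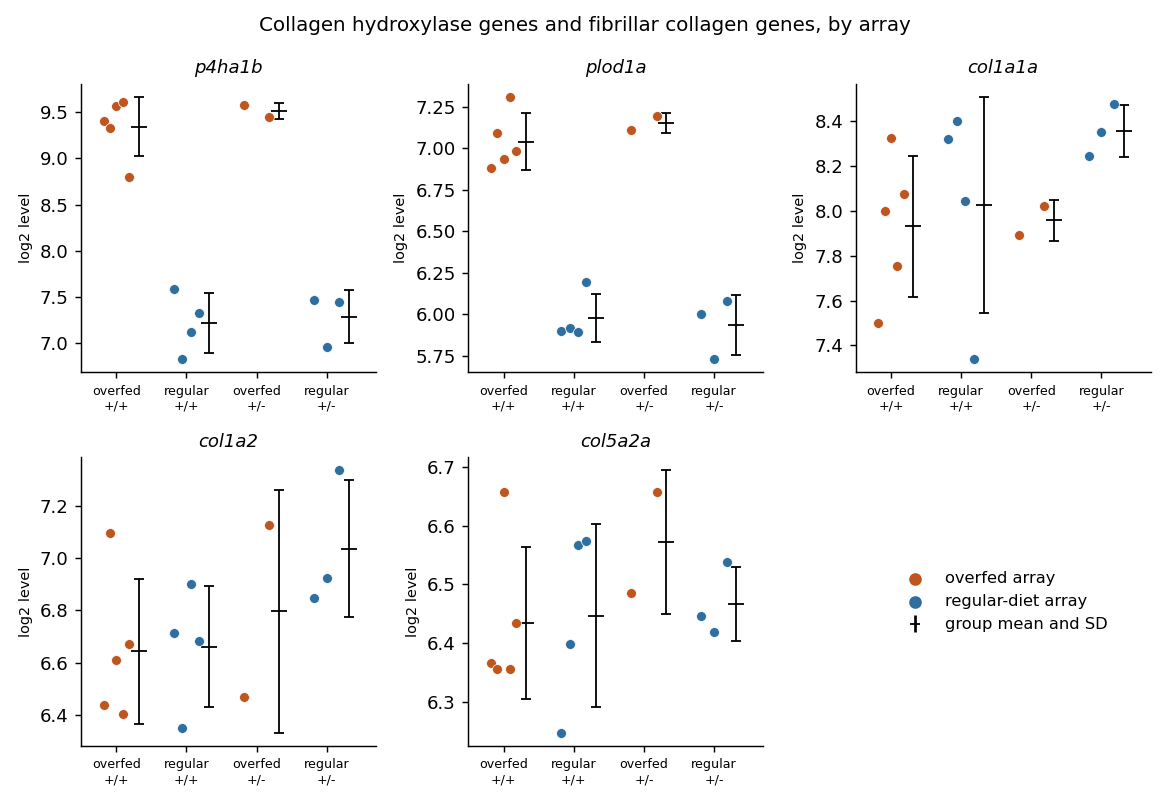
Log2 level (vertical axis, its range set per gene) of 2 collagen hydroxylase genes and 3 fibrillar collagen genes on each of 14 arrays. Points are arrays, overfed in orange and regular diet in blue, in ahcy+/+ (left pair) and ahcy+/- (right pair), and black bars give the group mean with its SD (n = 5, 4, 2 and 3). The diets separate for p4ha1b and plod1a and overlap for col1a1a, col1a2 and col5a2a.

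TGF-beta drives matrix synthesis in many tissues. Of 36 measured genes of the TGF-beta and BMP pathway, 2 rose and 3 fell on average over genotypes. Together these are 13.9% of the list, against 10.3% of all probe sets, so the share was near the background. The median difference was -0.10, against -0.07 over all probe sets. The BMP target genes id1 and id3 rose by 0.87 ± 0.13 (SE; adjusted p = 0.00295) and 1.12 ± 0.17 (adjusted p = 0.00296). id1 ranged from 7.44 to 8.18 on overfed and from 6.59 to 7.12 on regular-diet arrays, and the diets did not overlap for id3 either. The type II receptor gene tgfbr2b differed by -0.78 ± 0.20 (adjusted p = 0.0308), the BMP antagonist gene nog1 by -0.41 ± 0.10 (adjusted p = 0.0255) and the ligand gene bmp2b by -0.28 ± 0.08 (adjusted p = 0.0471). id1 and id3 passed in all 14 fits that left out an array. The calls of tgfbr2b, nog1 and bmp2b ended in 7, 3 and 11 of them, with the highest adjusted p without overfed ahcy+/- array 1 for tgfbr2b (0.118) and without array 4 of that group for nog1 (0.165) and bmp2b (0.19).

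Of 25 proteins of the adhesion site, where integrins meet the cytoskeleton, none passed in limma for diet on average. The smallest p was that of the integrin-linked kinase gene ilk, at -0.39 ± 0.15 (SE; adjusted p = 0.11). With array weights ilk passed, at -0.45 (adjusted p = 0.0379). Of 21 other proteases and inhibitors, 3 rose, or 14.3%, against 5.83% of all probe sets: the lysosomal protease genes ctsd by 0.81 ± 0.11 (adjusted p = 0.00151) and ctsla by 0.70 ± 0.18 (adjusted p = 0.0292), and plg, the gene of plasminogen made by hepatocytes, by 0.52 ± 0.12 (adjusted p = 0.0182). In either direction the share of these proteases and inhibitors was 14.3%, against 10.3% of all probe sets. For 31 other matrix proteins it was 12.9%, so both shares were near the background. Of these 31, 4 rose, or 12.9%, against 5.83% of all probe sets. These were the cell-surface proteoglycan gene sdc4 (0.53 ± 0.14), the secreted glycoprotein gene fstl1b (0.51 ± 0.13), the vitronectin gene vtnb (0.56 ± 0.16), whose product hepatocytes release into blood, and mfap1 (0.47 ± 0.10), a splicing factor in spite of its name, with adjusted p from 0.0144 to 0.0495. Among these lists, ctsd passed in all 14 fits without an array, while the calls of ctsla, plg, sdc4, fstl1b, vtnb and mfap1 ended in 6, 2, 7, 4, 10 and 1 of them. Each ended without overfed ahcy+/- array 1 or 4, and the adjusted p reached 0.165 for vtnb without array 4.

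Markers of cell types that a liver sample can hold were read beside these genes, for diet averaged over genotypes. The stellate and fibroblast list, which shares col1a1a, col1a2 and dcn with the members, had a mean level of 6.68 to 6.87 on overfed and of 6.85 to 7.16 on regular-diet arrays. Of its 7 measured genes 6 were below 0, as were 9313 of all 15134 probe sets, and dcn was the 1 that passed. The mean of 7 hepatocyte genes was 12.79 to 13.07 after overfeeding and 12.36 to 12.76 on the regular diet. Lower after overfeeding were the means of 7 intestine genes (5.82 to 7.08, against 6.38 to 9.99 on the regular diet), 9 exocrine pancreas genes (7.61 to 12.85, against 9.43 to 13.47) and 10 skeletal muscle genes (5.87 to 6.18, against 6.16 to 6.97). Past the threshold as lower were 3 of the 7 intestine genes, 2 of the 10 skeletal muscle genes and 0 of the 9 pancreas genes, against 4.5% of all probe sets. All 9 pancreas genes had differences below 0. Of 10 leukocyte genes 8 were below 0 and 1, lyz, passed. All 5 erythrocyte or thrombocyte genes, among them the member itga2b, were above 0, against 38.5% of all probe sets, and none passed. The smooth muscle pair lay at 6.09 to 7.56, against 6.96 to 9.09 on the regular diet. The 7 intestine and 9 pancreas genes were then pooled into 1 mean per array as a covariate, so neither tissue was adjusted for on its own. With it, col18a1a, mmp14b, tgfbi and timp2a still passed, as did 5.8% of all probe sets. dcn did not pass (adjusted p = 0.12), with a difference of -0.35, against -0.32 without the covariate. The same covariate ended the averaged calls of 8 genes of the related lists, tgfbr2b, nog1, bmp2b, plg, sdc4, fstl1b, vtnb and mfap1, with adjusted p from 0.0793 to 0.421. Of these, vtnb was at 0.29, against 0.56 without the covariate, and plg at 0.33, against 0.52. Less reduced were nog1 (-0.32, against -0.41), bmp2b (-0.205, against -0.278), mfap1 (0.41, against 0.47) and fstl1b (0.47, against 0.51). The differences of tgfbr2b (-0.88 ± 0.271, against -0.778 ± 0.205, SE) and sdc4 (0.567 ± 0.185, against 0.529 ± 0.139) were larger in size. Their calls ended with a larger SE. p4ha1b, plod1a, id1, id3, ctsd and ctsla passed with the covariate. So did ilk, which had not passed without it, at -0.65 (adjusted p = 0.0314). The part of the other cell types in these results was not tested.

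Vitellogenin genes, made by the liver of egg-laying females, averaged 13.90 on the regular-diet ahcy+/+ array 9 and 12.40 on the overfed ahcy+/- array 1, and between 5.37 and 9.28 on the other 12. Array 9 also stood apart for the members, with a median absolute deviation from its group mean of 0.26, against 0.10 to 0.18 on the other 13 arrays. It was the highest of its group of 4 for 18 of 45 members and the lowest for 14. Array 9 also had the highest intestine (9.335) and pancreas (12.78) means of its group, and the lowest hepatocyte mean of all 14 arrays (12.36). The overfed ahcy+/- array 1 had the highest intestine (7.08) and pancreas (12.85) means of the overfed arrays. A fit that leaves out these 2 arrays is therefore not a check on vitellogenin alone. Without these 2 arrays, 4 members passed for diet on average, mmp13a, mmp14b, tgfbi and timp2a, or 8.89%, against 10.7% of all probe sets in that fit. It leaves array 4 as the only overfed ahcy+/- array, whose spread is assumed to be that of the other groups, and the mmp13a difference of 0.81 ± 0.20 (SE; adjusted p = 0.0252) rests on its value of 7.71. col18a1a and dcn did not pass (adjusted p = 0.0656 and 0.103), with differences of 0.74 and -0.32, against 0.72 and -0.32 with all arrays. Among the related genes the calls of tgfbr2b, bmp2b, ctsla, sdc4, fstl1b and vtnb ended (adjusted p from 0.053 to 0.0956).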

How the data were processed

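Per the submitters' processing notes, which name GCRMA and Partek without version, role or order, the authors summarised each probe set; the deposited values run from 0.46 to 14.74 and were read as log2 levels from that range. The scanner output was not analysed. Of 15617 probe sets, 115 are controls, and a further 368 stayed at or below 4 (log2) on all arrays but 1 or on all, which left 15134 for the tests. By the annotation of the platform, updated through Entrez IDs with a RefSeq gene table (10711 found there, 1 symbol changed), 10795 of the 15502 probe sets other than controls belong to 1 gene, 135 to more than 1 and 4572 to no named gene. The members had 57 probe sets of 1 gene, and 2 more, shared with another gene, were not used.

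Group means were estimated by limma (version 3.58.1, R 4.3.3) with lmFit and eBayes, without covariates; there were 10 residual degrees of freedom and 3.06 from the prior. Contrasts were overfed minus regular diet in each genotype and their mean, ahcy+/- minus ahcy+/+ on each diet, and the difference of the diet effects. P-values were adjusted by Benjamini and Hochberg over the 15134 probe sets. The fit was tested on simulated data. Copies of a gene were compared by exact permutation. Plots used matplotlib 3.10.9 (Python 3.11.15).

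The members, the lists and the tests were chosen with earlier results of these data known. Genes were named where they passed in any contrast, or where they had the 2 smallest p for the averaged diet or the smallest for a genotype contrast in their role. Any other member or list gene in the text was named after its values were seen.

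The alternatives were to omit the low-value filter or set it at 6 (log2), trend and robust moderation, only the groups compared, array weights, quantile normalization, median centring, the mean of a gene's probe sets, 1 probe set per gene, a vitellogenin covariate in place of sex, a replicate block, and each array left out. Fits without the 2 arrays highest in vitellogenin and with an intestine and pancreas covariate, and the other probe sets in the comparison of copies, were chosen after seeing the data.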

Additional observations from a re-analysis of the deposited data

Results flagged for a closer look

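Among 90 sets of group values (45 members in the groups of 4 and 5 arrays), 3 held an array far from the others by Dixon's test at its 95% level, which chance alone does in about 1 in 20 groups. The collagen gene col5a2a read 6.66 on the overfed ahcy+/+ array 4 and 6.36 to 6.43 on the other 4 arrays of that group. The matrix protein gene sparc read 8.03 on the overfed ahcy+/+ array 3, against 7.33 to 7.52 on the other 4. The collagenase gene mmp13a read 6.52 on the regular-diet ahcy+/+ array 9, against 5.71 to 5.83 on the other 3.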

How the results depend on the processing

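For diet in ahcy+/+, 2 members passed, and 1 to 3 did in the 14 fits that left out an array; timp2a passed in all of them, and 1 member remained without regular-diet array 2 or 5 or overfed array 4 or 6. In ahcy+/- the count of 0 became 1, mmp14b, with array weights and with median centring, and was 0 to 1 without an array. For diet on average, 5 members passed, 12 did with the vitellogenin covariate (8 higher, 4 lower, against 16.2% of all probe sets), and 3 to 7 without an array. The 3 were mmp14b, tgfbi and timp2a, without regular-diet ahcy+/- array 3 or overfed ahcy+/- array 1 or 4. With the vitellogenin covariate, col17a1b, col6a3, fn1b, itga5, lama5, loxl2b and sparc passed beside the 5 of the main fit. With the replicate block, 0 members passed in ahcy+/+ and 0 on average, where 0.0396% and 0.033% of all probe sets did. The averaged calls of the related genes ended with this block too. For p4ha1b the limma adjusted p was 0.0797, for plod1a 0.109, for id1 0.159, for id3 0.141 and for ctsd 0.271. The block fitted a level to each array number. That left fewer residual degrees of freedom, so the ended calls do not show whether array number matters. Numbers found once added nothing: overfed ahcy+/- array 1, regular-diet ahcy+/+ arrays 5 and 9, regular-diet ahcy+/- array 8. Overfed ahcy+/- thus rested on array 4. Averaged differences were 3.285 for tgfbi, 1.995 for timp2a, 1.139 for mmp14b, -0.356 for dcn and 0.194 for col18a1a. Only col18a1a was smaller in size than in the main fit (0.72). Arrays with the same number had correlations from -0.23 to 0.16 in their deviations from the group means. Arrays of unlike number were not compared, so whether a number marks shared handling was not tested. Both genotype comparisons and the interaction gave 0 members under each alternative run. A fit without 1 of the 2 overfed ahcy+/- arrays takes the spread of the other one from the other groups. No result changed direction past the threshold. Median centring moved the median of all probe sets for diet in ahcy+/- to 0.01, against -0.09, and the median of the members for diet on average to 0.06, against -0.02. A fit of the compared groups alone was not run for the averaged diet and the interaction, which use all 4 groups. The deposited values hold no detection calls, so signal over background could not be judged.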

Other observations

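The vessel-lining receptor gene kdrl rose after overfeeding, by 0.64 ± 0.10 (log2 difference ± SE, averaged over genotypes; adjusted p = 0.00332 in limma), while the other 3 of the 4 measured endothelial genes had differences below 0 and did not pass, and the mean of the 4 lay at 5.84 to 6.07 on overfed and 5.68 to 6.05 on regular-diet arrays. The fibrinogen chain genes fga and fgb, whose products are ligands of the integrin that holds itga2b, rose by 0.44 ± 0.11 (adjusted p = 0.0264) and 0.39 ± 0.09 (adjusted p = 0.0205). Of smooth muscle genes, tagln, an actin-binding protein of contractile cells, differed by -0.93 ± 0.28 (adjusted p = 0.0486). These genes are markers of cell types and were counted with their lists.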
